A study of Homo sapiens with 6 samples.

Results

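The 5 receptors of the MET and AXL families, MET, MST1R, AXL, TYRO3 and MERTK, were each targeted by 1 library siRNA reagent in 1 well. So 5 of the 939 library wells, and 5 of the 926 genes they target, are described. Their wells were found by the locus identifiers in the deposited table. The siRNA wells held SUM149PT cells, a widely used line derived from a triple-negative inflammatory breast tumour. Both groups received 45 nM siRNA, complexed with a transfection reagent for 30 minutes before 750 cells were added. After 48 hours 1 group (3 samples) was given 50 µM eicosapentaenoic acid (EPA), an omega-3 polyunsaturated fatty acid, and the other (3 samples) was left untreated, both for 72 hours more. What the untreated wells received in place of EPA is not given in the sources used here. Living cells turn resazurin into a fluorescent product, so a lower fluorescence means fewer or less active cells. The deposited columns are headed Rep 1 to 3 (untreated) and Rep 4 to 6 (EPA), and those numbers are used here. No label says that they are separate cultures, so every p-value speaks only of the spread among them, which may be technical. Knockdown was not measured, and with 1 reagent per gene an effect on another transcript cannot be told apart from loss of the receptor.

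All 5 proteins are receptor tyrosine kinases: an extracellular part binds a ligand, receptors pair in the membrane, and the kinase inside the cell is switched on. MET is the receptor of hepatocyte growth factor and MST1R, also called RON, that of macrophage-stimulating protein. Both promote cell scattering, motility and survival in epithelial cells, through the RAS-ERK and PI3K-AKT pathways among others. AXL, TYRO3 and MERTK form the TAM family. The family's ligands GAS6 and protein S, not both for every member, bridge TAM receptors to phosphatidylserine on dying cells. In tumours AXL is known for its link with mesenchymal features and drug resistance. No siRNA against HGF, MST1, GAS6 or PROS1, the genes of these ligands, was found among the library symbols.

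EPA alone lowered the signal, and did so unevenly over the plate. The median over all wells of OTP3, the negative control siRNA, went from 49147 ± 1644 to 21951 ± 4049 units (SD, n = 3), and that over library siRNAs from 22991 ± 1184 to 13565 ± 1404. Signal left with EPA (EPA mean over untreated mean) was 44.7% ± 4.83 (SE) for OTP3 and 59.0% ± 3.94 for the library. In control wells with living cells (OTP3 and cells without siRNA) it was 87.2% ± 2.45 (SE) in plate row 1 but 33.8% ± 2.01 in row 9. The receptors lie in different rows: MET and MERTK both in row 7 of plate 2, MST1R in row 13 of plate 2, AXL in row 1 of plate 1 and TYRO3 in row 9 of plate 3. Blank wells had plate means of 3664 to 3804 untreated and 3885 to 3891 with EPA. The main scale is therefore log2 of a well over the library median of its plate and sample, and each receptor is also set against the 3 living control wells of its own row. Those controls lie in plate columns 2 to 4, near MST1R, AXL and TYRO3 in column 6 but far from MERTK and MET in columns 20 and 22.

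**Figure D1:**
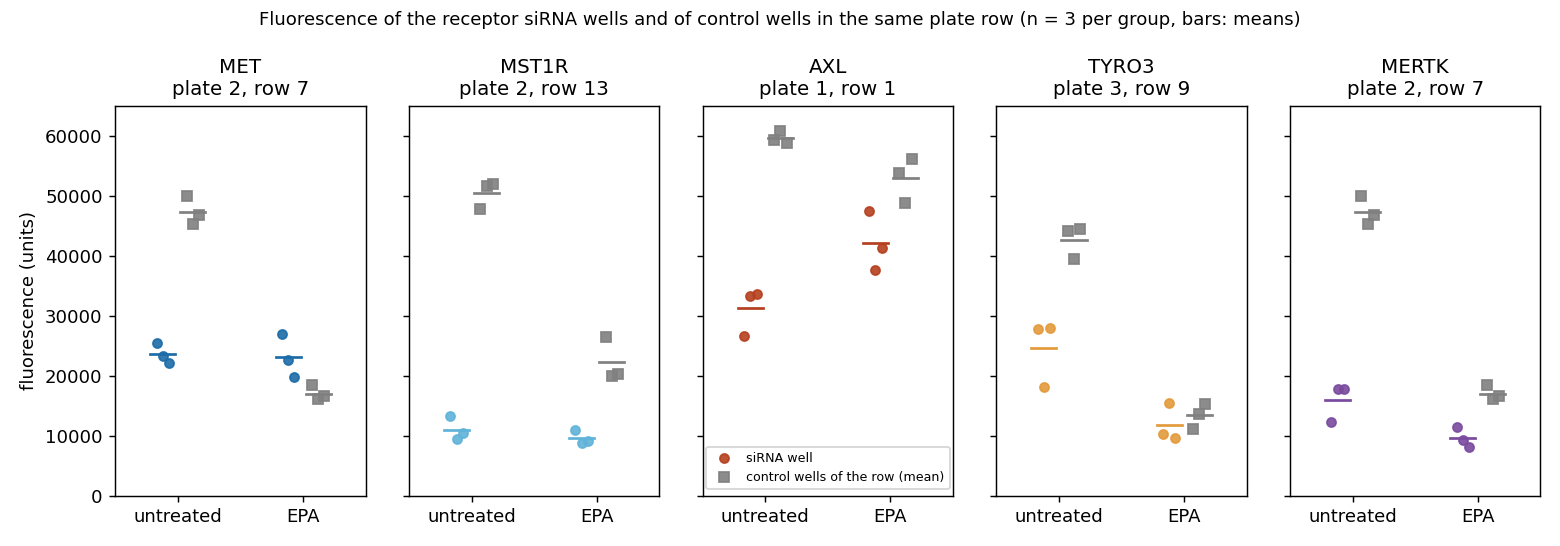
Fluorescence in plate reader units (vertical axis) of each receptor siRNA well (circles) and the mean of the 3 living control wells in its plate row (squares), for 3 untreated and 3 EPA-treated samples, with bars at the means. The control wells of MET fall from 47419 to 17040 while the MET well has means of 23661 and 23184, and the AXL well rises from 31259 to 42136.

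MET siRNA wells read much alike with and without EPA, while the control wells of the same plate row lost most of their signal. The values were 25560, 23344 and 22080 untreated and 27055, 22675 and 19822 with EPA. The groups overlapped, and 98.0% ± 9.84 (SE) of the signal was left. The living control wells of the same row fell from 47419 ± 2367 to 17040 ± 1242 (SD, n = 3), which left 35.9% ± 1.83 (SE). The MET well was thus at 49.9% ± 2.39 of its row controls untreated and at 136% ± 14.3 with EPA (SD, n = 3), and all 3 EPA-treated values lay above all 3 untreated ones. That change was 1.44 on the log2 scale (SE 0.0990, two-sided exact permutation p = 0.1, the lowest possible for 3 samples against 3). The separation was not particular to MET. Against their own row controls, MST1R, AXL, TYRO3 and MERTK also had all 3 EPA-treated values above all 3 untreated ones. How many of all library siRNAs separate in this way against row controls was not tested. In the fit on this scale 50.6% of all library siRNAs were called higher with EPA than without it, MET among them (limma, adjusted p = 8.22e-05).

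Relative to the plate's library median, MET stood at -0.05 untreated (limma, adjusted p = 0.626) and at 0.64 with EPA (SE 0.0936, adjusted p = 0.000119). The difference, EPA minus untreated, was 0.70 (SE 0.132, 95% interval 0.40 to 0.99, limma, adjusted p = 0.00287), and the 3 EPA-treated values lay above the untreated ones on this scale, as for 36.0% of library siRNAs. Against row controls, MET with EPA was at 0.43 (limma, adjusted p = 0.00196), and 6.07% of all library siRNAs were called higher than their row controls with EPA. The row itself bears on these values. The other 19 library siRNAs of row 7 on plate 2 kept a median of 80.9% of their signal, more than the controls beside them, and 16 of the 19 kept less than MET. Median polish, which removes the typical value of each plate row and column, took 0.44 from the difference as the row's part, -0.10 as the column's and -0.15 as the plate's, and left 0.51 (limma, adjusted p = 0.0632), so the call was lost there. The levels after polish were 0.46 untreated (limma, adjusted p = 0.0115, with 26.1% of all siRNAs called higher) and 0.97 with EPA, and against OTP3 the level with EPA was 0.0625 (adjusted p = 0.664).

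MST1R siRNA gave the lowest untreated signal of the 5. Its wells read 13245, 9428 and 10442 untreated and 10896, 8831 and 9070 with EPA. The groups overlapped, and 87.0% ± 10.8 (SE) of the signal was left, where the living control wells of row 13 kept 44.1% ± 4.33. After blank subtraction MST1R kept 77.5% ± 15.6 (SE) and those controls 39.2% ± 4.61. The low level without EPA was 21.0% ± 3.66 of the plate's OTP3 median (SD, n = 3). On the log2 scale it was -1.17 from the library median (SE 0.112, limma, adjusted p = 8.58e-06), rank 99 of 939 from the lowest. Of the other 19 siRNAs of its row 1 read lower untreated, and of its 8 adjacent siRNAs 0 did. With EPA MST1R stood at -0.63 (SE 0.112, limma, adjusted p = 0.000487), still below the library median, but less far. That call with EPA was lost after median polish (-0.29, limma, adjusted p = 0.0613) and with blank subtraction too (-0.48, adjusted p = 0.0509).

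The MST1R difference, EPA minus untreated, was 0.54 (SE 0.158, 95% interval 0.19 to 0.89, limma, adjusted p = 0.0191). On this scale all 3 EPA-treated values lay above the untreated ones, as for 36.0% of library siRNAs. The 8 adjacent siRNAs had a median difference of -0.06, and after median polish MST1R was at 0.92 (limma, adjusted p = 0.00142). The call depended on single samples and on the background, however. It was lost without untreated Rep 2 (0.48, limma, adjusted p = 0.0590), without untreated Rep 3 (0.53, 0.0567), without EPA Rep 6 (0.47, 0.0714) and after blank subtraction (0.60, 0.0947), where 25.8% of all siRNAs were called higher. With blank subtraction and median polish together it passed again (1.09, limma, adjusted p = 0.0159), as 13.3% of all siRNAs did.

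AXL siRNA wells read higher with EPA than without it. The values were 26726, 33377 and 33675 untreated and 47501, 37602 and 41304 with EPA, so the groups did not overlap and 135% ± 13.5 (SE) of the signal was left. Of all 939 library siRNAs, 0.213% had every EPA-treated reading above every untreated one. These were AXL and BMPR1A, a bone morphogenetic protein receptor, named here after its value was seen (113% left). Both lie in row 1 of plate 1. The living control wells of that row also lost little, from 59684 ± 1053 to 52949 ± 3800 (SD, n = 3), or 88.7% ± 3.79 (SE) left. Against them AXL was at 52.4% ± 6.45 untreated and 79.6% ± 7.70 with EPA (SD, n = 3), a change of 0.61 on the log2 scale (SE 0.133, exact permutation p = 0.1).

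On the main scale AXL stood at 0.37 untreated (SE 0.0917, limma, adjusted p = 0.00487) and at 1.48 with EPA (adjusted p = 2.74e-07). The difference of 1.12 (SE 0.130, 95% interval 0.83 to 1.41, limma, adjusted p = 0.000342) was the 3rd highest of 939. In its row AXL kept more signal than all 19 other siRNAs, whose median was 85.5% and of which 11 were also called higher with EPA. In its column it kept more than all 15 others (median 66.0%). After median polish the AXL difference was 0.29 (limma, adjusted p = 0.214), with 0.55 taken as the row's part, 0.36 as the column's and -0.08 as the plate's, so the call did not hold there. Neither level was called after polish (-0.10 untreated, limma, adjusted p = 0.506; 0.19 with EPA, adjusted p = 0.196). The signs of its levels also turned with the reference. Against row controls AXL was below them in both groups, at -0.94 untreated (limma, adjusted p = 1.96e-05, with 94.9% of all siRNAs called lower) and -0.33 with EPA (adjusted p = 0.0249, with 71.2%).

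**Figure D2:**
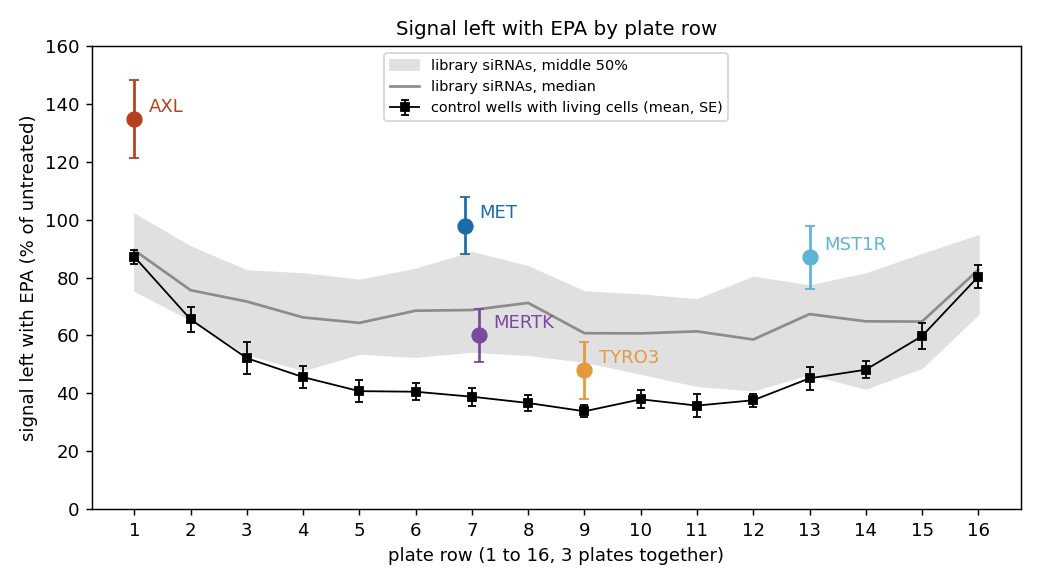
Signal left with EPA as a percent of the untreated mean (vertical axis) against plate row, for the 5 receptor siRNAs (circles, SE), control wells with living cells over the 3 plates (squares, SE) and library siRNAs (grey line, median; band, middle 50%). Controls run from 87.2% in row 1 to 33.8% in row 9. AXL (135%), MET (98.0%) and MST1R (87.0%) lie above the band of their rows. MERTK (60.0%) lies within it and TYRO3 (47.9%) just below it, where the band starts at 51.0%.

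TYRO3 siRNA wells lost about as much signal with EPA as the median siRNA of their row, and less than its living control wells. The values were 27899, 18174 and 27909 untreated and 10214, 15545 and 9701 with EPA. The groups did not overlap, as for 61.7% of library siRNAs with EPA lower, and 47.9% ± 9.86 (SE) of the signal was left. The other 19 siRNAs of row 9 on plate 3 kept a median of 53.9%, and the living control wells of the row kept 31.3% ± 3.03 (SE). After blank subtraction TYRO3 kept 37.9% ± 10.6 (SE) and those controls 24.4% ± 3.20. Untreated Rep 2 was the lowest untreated reading and EPA Rep 5 the highest EPA-treated one. Relative to the library median TYRO3 was at 0.27 untreated (limma, adjusted p = 0.110) and 0.01 with EPA (adjusted p = 0.929). With EPA the call depended on the reference: TYRO3 was called higher after median polish (0.55, limma, adjusted p = 0.0016, as 30.4% of all siRNAs were) and lower against OTP3 (-0.77, adjusted p = 0.000701, as 64.7% were). The difference of -0.26 had a 95% interval from -0.70 to 0.19 (limma, adjusted p = 0.319), which spans both falls and rises. Its sign too turned with the reference: after median polish it was 0.26 (adjusted p = 0.288), and against row controls 0.62 (limma, adjusted p = 0.0355; exact permutation p = 0.1).

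MERTK siRNA wells lay below the library median in both groups, by about the same distance. Its wells read 12297, 17778 and 17872 untreated and 11427, 9220 and 8143 with EPA. The groups did not overlap, as for 61.7% of library siRNAs with EPA lower, and 60.0% ± 9.19 (SE) of the signal was left. The library median kept 59.0%, but the other 19 siRNAs of the row kept a median of 81.4%, and 3 of them kept less than MERTK. After blank subtraction MERTK kept 46.4% ± 10.3 (SE) and the living control wells of its row 30.1% ± 1.90. MERTK was at -0.64 untreated (SE 0.147, limma, adjusted p = 0.00304) and at -0.63 with EPA (adjusted p = 0.00275), so the difference was 0.01 (SE 0.209, 95% interval -0.46 to 0.47, adjusted p = 0.987). Untreated Rep 1 stood apart at -1.12, beside -0.37 and -0.42 in the other untreated samples. Without it the difference was -0.24 (limma, adjusted p = 0.265). Row 7 reads low without EPA: 9 of the other 19 siRNAs there were below MERTK, and after median polish its untreated value was -0.18 (limma, adjusted p = 0.401, with 27.5% of all siRNAs called lower). With EPA it stayed called after polish at -0.57 (limma, adjusted p = 0.0103, with 30.0%). Against row controls the MERTK difference was 0.75 (limma, adjusted p = 0.0170), since those controls kept 35.9%.

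Without EPA, all 5 receptor siRNAs read below the plate's negative control. In percent of the OTP3 median, AXL was at 61.3 ± 7.40, TYRO3 at 54.0 ± 8.60, MET at 45.1 ± 3.92, MERTK at 30.4 ± 6.15 and MST1R at 21.0 ± 3.66 (SD, n = 3). In that order only MET and MERTK, as neighbours, did not overlap. In the fit centred on OTP3 all 5 were called lower, as were 91.8% of library siRNAs, so this sets the receptors apart from the control but not from the library. Relative to the library median MST1R and MERTK were called lower (35.6% of all siRNAs were) and AXL higher (33.9% were). With EPA the order in percent of OTP3 was AXL 174 ± 22.7, MET 105 ± 12.2, TYRO3 60.8 ± 20.5, MST1R 43.5 ± 2.96 and MERTK 43.3 ± 4.54. Here only MST1R and MERTK overlapped as neighbours. Relative to the library median AXL and MET were then called higher (36.4% of all were), and MST1R and MERTK lower (37.0% were).

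For EPA minus untreated, 3 of the 5 (MET, MST1R and AXL) were called higher and 0 lower in limma's test at an adjusted p under 0.05, where 29.0% of all 939 siRNAs were called higher and 15.2% lower. The median siRNA stood at 0.20 on this scale. Relative to the median siRNA of their plate, AXL (0.97, adjusted p = 0.00041) and MET (0.49, adjusted p = 0.0176) still passed in limma's test and MST1R (0.34, adjusted p = 0.126) did not, where 14.0% of all siRNAs were called higher. After median polish MST1R alone of the 5 was called, where 16.2% of all siRNAs were called higher. Against the living control wells of the row all 5 were called higher, where 50.6% of all siRNAs were.

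**Figure D3:**
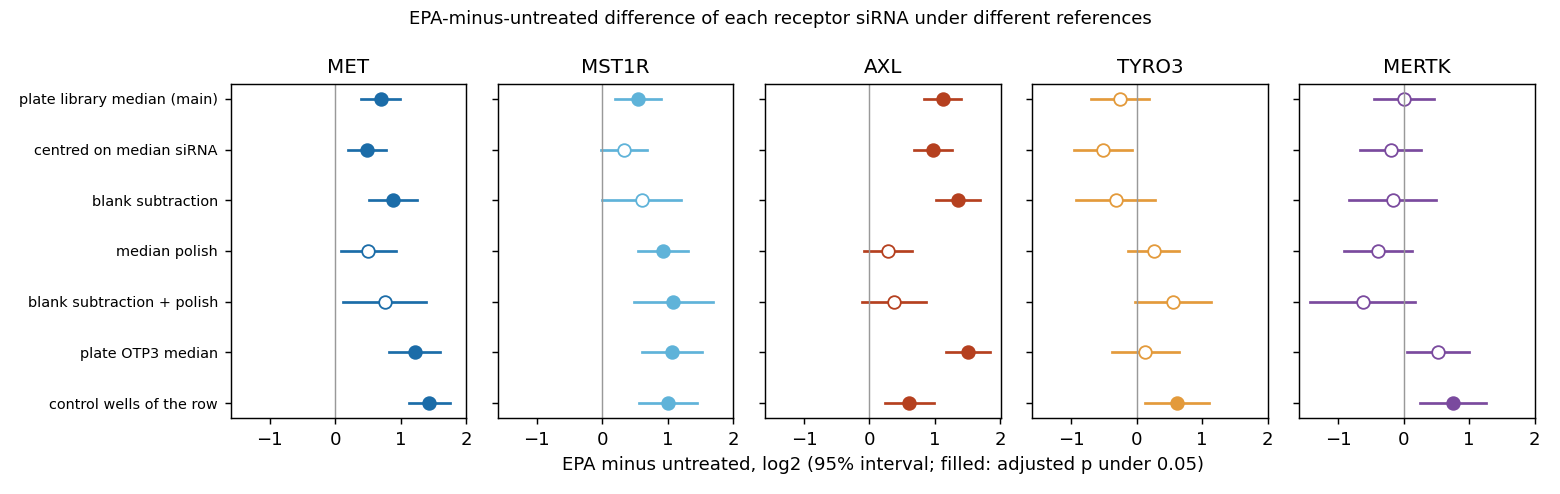
EPA-minus-untreated difference on the log2 scale (horizontal axis) of each receptor siRNA with its 95% interval, under 7 references or corrections (rows); filled circles passed limma's test at an adjusted p under 0.05. AXL goes from 1.12 to 0.29 with median polish and MST1R from 0.54 to 0.92, and MET is above 0 in each row, while TYRO3 and MERTK change sign between rows.

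**Figure D4:**
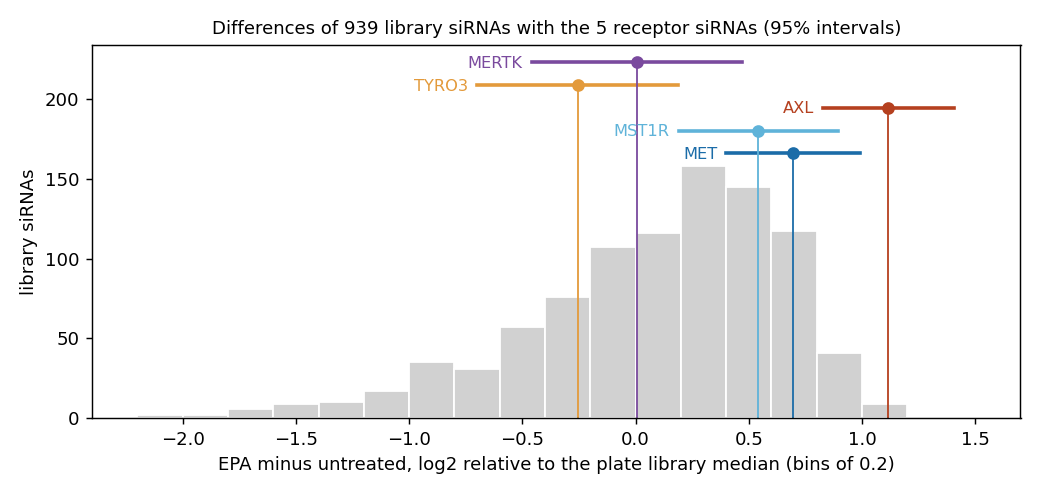
Number of library siRNAs (vertical axis) by EPA-minus-untreated log2 difference relative to the plate library median (horizontal axis, bins of 0.2), with the 5 receptor siRNAs and their 95% intervals above. AXL (1.12) lies in the upper tail, MET (0.70) and MST1R (0.54) in the upper shoulder, and MERTK (0.01) and TYRO3 (-0.26) below the median of 0.20.

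The change of the log2 ratio of 2 receptors between the groups was compared over 5 pairs, 4 of them within a family. The AXL to TYRO3 ratio rose by 1.37 (SE 0.305), from 0.10 ± 0.349 to 1.47 ± 0.397, and the AXL to MERTK ratio by 1.11 (SE 0.145), from 1.01 ± 0.231 to 2.12 ± 0.0986 (SD, n = 3). Neither overlapped between groups (exact permutation p = 0.1 each, 0.167 adjusted over the 5 pairs). The 3 TAM receptors lie in different rows and on different plates, and neither ratio was corrected for row or column. In median polish the row's part of the EPA-minus-untreated difference was 0.55 for AXL, -0.17 for TYRO3 and 0.44 for MERTK. The column's part was 0.36, -0.37 and 0.11 in that order. How much of the 2 changes comes from position was not tested. The TYRO3 to MERTK ratio changed by -0.26 (SE 0.370, exact permutation p = 0.7, 0.7 adjusted) and the MET to MST1R ratio by 0.15 (SE 0.127, exact permutation p = 0.2, 0.25 adjusted), and both overlapped. The pair MET and MERTK was added after the plate positions were seen, as both lie in row 7 of plate 2, in columns 22 and 20. Their log2 ratio was 1.06, 0.39 and 0.31 untreated and 1.24, 1.30 and 1.28 with EPA. It rose by 0.69 (SE 0.237) without overlap (exact permutation p = 0.1, 0.167 adjusted). The highest untreated ratio, 1.06, is that of untreated Rep 1, where MERTK stood apart. Of the other 19 library siRNAs in that row, 16 kept less signal than MET (98.0% left) and 3 kept less than MERTK (60.0% left). How often other pairs in a row separate in this way was not tested.

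Of the other receptor tyrosine kinases, 52 of 53 listed were measured. For EPA minus untreated 7 were called lower and 15 higher, with a median of 0.25, beside 143 (15.2%) and 272 (29.0%) of 939 and a median of 0.20 over all siRNAs. Of the 52, 15 lie at a plate edge (row 1, row 16 or the last column), beside 159 (16.9%) of all 939. Among the lowest by moderated statistic were FLT1, which binds vascular endothelial growth factor, at -2.01, and the ephrin receptor EPHA2 at -1.63. Both kept their calls after median polish. FLT1 wells with EPA read 4667 ± 516 (SD, n = 3), not far above the blank wells of their plate with EPA (3891 ± 60.9). The highest were RET, the receptor of the GDNF family, at 1.07, EPHB1 at 0.75 and the insulin-like growth factor receptor IGF1R at 0.77. All 3 lie in row 1 or row 16, as AXL does, and after median polish RET was still called (0.50, limma, adjusted p = 0.0162) and EPHB1 (0.45, adjusted p = 0.0677) and IGF1R (0.20, adjusted p = 0.330) were not. Counts there were 9 lower and 7 higher of 52, beside 133 lower and 152 higher of all 939 siRNAs. The medians after polish were -0.01 for the list and 0.07 over all siRNAs.

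Of kinases known to act downstream of MET and AXL, 37 siRNAs to 36 genes were measured. For EPA minus untreated 6 were called lower and 12 higher, with a median of 0.15, beside 15.2% and 29.0% of all siRNAs. MTOR, the growth kinase fed by PI3K and AKT, was lowest at -1.54 (SE 0.197, limma, adjusted p = 0.000549), its wells going from 25027 ± 3849 to 5337 ± 653 (SD, n = 3). SRC, a membrane-bound tyrosine kinase, was at -1.0 and the related ABL2 at -0.81. Against row controls MTOR was at -1.03, SRC at -0.15 and ABL2 at -0.40, where the median siRNA was at 0.50. Among the higher calls, integrin-linked kinase ILK was at 0.95 and JAK2 at 0.66. JAK2 wells (3856 ± 352 untreated, 3647 ± 28.4 with EPA) read close to the blank wells of their plate (3664 ± 163 and 3885 ± 42.7), where little further loss can be read. After median polish 3 were lower and 6 higher of 37, beside 133 lower and 152 higher of all 939 siRNAs. ILK (0.26, limma, adjusted p = 0.275) was no longer among the higher, JAK2 (0.83, adjusted p = 0.00497) still was, and MTOR was at -1.50.

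The siRNAs with values most like each receptor's were taken by the root mean square difference in log2 value over the 6 samples. For AXL they were HIPK4 (0.204), NEK8 (0.205) and CNR1 (0.207), all 3 at a plate edge, in rows 16, 15 and 16, with NEK8 in the last column, 24. For MET they were GCG (0.0990), NAGK (0.101) and GTF2H1 (0.135), and for MST1R EPHB2 (0.131), SGK2 (0.165) and GRK4 (0.176). Near TYRO3 were PANK1 (0.185) and TLK2 (0.207), and MERTK was most like PDK2 (0.162), HIPK3 (0.199) and HSPB8 (0.240). After median polish none of these recurred. The nearest were then UCKL1 for MET (0.135), EXOSC10 for MST1R (0.218), PTK2 for AXL (0.134), SLK for TYRO3 (0.139) and PRAG1 for MERTK (0.258).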

How the data were processed

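Each well has 1 raw fluorescence intensity per deposited column, per the file headers, and whether the authors subtracted blanks or corrected for position is not given in the sources used here. Wells were identified by locus identifier, and 933 of 939 library wells were found in RefSeq's gene list (GRCh38.p14). The members and lists were chosen with earlier results of these data known. Fluorescence was divided by the plate and sample median of library wells and log2-transformed, without pseudocount or low-value filter. limma 3.58.1 in R 4.3.3 (trend and robust) fitted a mean per group over all 939 library wells, with two-sided Benjamini-Hochberg adjustment over them at 0.05. The fit was tested on simulated data with independent noise and no effect of EPA by plate position, so that test says nothing about calls that depend on position. Single quantities were compared by exact permutation. SEs of percentages combine the spreads of both group means. Row controls are the OTP3 and cells-alone wells of the same plate row. Blank subtraction used the plate's blank mean with a floor of 3 blank SDs. Besides all 5 receptors, the named genes are up to 3 lower and 3 higher per list by moderated statistic, and the 3 siRNAs nearest each receptor. A few of the genes so selected are not reported here. With 3 samples per group, and wells near the blank level, precision is low. No siRNA sequences were used here.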

Additional observations from a re-analysis of the deposited data

Results flagged for a closer look

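Relative to the plate's library median, the effect of 3 receptor siRNAs differed between EPA-treated and untreated samples by limma's test of the difference. These were AXL at 1.12 (adjusted p = 0.000342, with 0.29 after median polish), MET at 0.70 (adjusted p = 0.00287, with 0.51) and MST1R at 0.54 (adjusted p = 0.0191, with 0.92). In all 3 every EPA-treated value lay above every untreated one on this scale, as for 36.0% of library siRNAs.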

How the results depend on the processing

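No paired analysis was possible because the columns are numbered 1 to 6 through both groups and carry no number shared with the labels' samples, so the replicate block was not run. In the limma fits, 307 values under an alternative kept their direction and side of the threshold (or a count within 1.5 times), 17 lost a call, 5 gained one, 22 changed sign and 35 moved a count. The exact permutation tests cannot pass the threshold under any alternative, so only their direction can be read, and it turned in 4 of 105. Values are log2, and the causes were not tested.

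Without EPA, MET was at -1.15 centred on OTP3, -1.0 on row controls, 0.46 after median polish and 0.59 with blank subtraction too. AXL was at -0.71, -0.94, -0.10 and -0.13 in that order, TYRO3 at -0.90 on OTP3 and -0.82 on row controls, and MERTK at -0.18 after polish and -0.22 with blank subtraction too. With EPA, MET was at 0.0625 on OTP3. MST1R was at -0.29 and AXL at 0.19 after polish, and -0.48 and 0.25 with blank subtraction too, and AXL was at -0.33 on row controls. TYRO3 was at -0.77 on OTP3, -0.20 on row controls, 0.55 after polish and 0.93 with both corrections, and leaving out 1 sample gave -0.17 to 0.14.

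For EPA minus untreated, median polish gave 0.51 for MET, 0.29 for AXL, 0.26 for TYRO3 and -0.39 for MERTK, and with blank subtraction too 0.76, 0.38, 0.56 and -0.63. Blank subtraction alone gave 0.60 for MST1R and -0.17 for MERTK. MST1R, at 0.54, did not pass a threshold of 0.01. Centring on the median siRNA, chosen after seeing the data, gave 0.34 for MST1R and -0.20 for MERTK. Row controls gave 0.62 for TYRO3 and 0.75 for MERTK, and OTP3 gave 0.13 for TYRO3. Leaving out 1 sample gave 0.47 to 0.62 for MST1R and -0.24 to 0.14 for MERTK. It gave -0.13 to 0.27 for TYRO3 against OTP3 (-0.0354 after blank subtraction) and -0.53 to 0.0355 for the TYRO3 to MERTK ratio.

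Over all siRNAs, untreated calls were 862 lower and 5 higher on OTP3, 891 and 2 on row controls, and 219 and 206 with both corrections. Calls with EPA were 608 and 127 on OTP3 and 669 and 57 on row controls. For EPA minus untreated there were 59 lower and 546 higher on OTP3 and 69 and 475 on row controls. Higher calls were 152 after polish, 125 with both corrections, 135 at a threshold of 0.01 and 131 centred on the median siRNA. Other receptors called higher were 38 on OTP3, 23 on row controls, 7 after polish, 6 with both corrections (11 lower), 9 at a threshold of 0.01 and 9 centred on the median siRNA. Downstream kinases were 2 lower and 20 higher on OTP3, 1 and 20 on row controls, 3 and 6 after polish, 3 and 6 at a threshold of 0.01, 3 higher with both corrections and 6 higher centred on the median siRNA.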
